A study of Mus musculus with 18 samples.

Results

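The question asked of these data was whether the genotype goes with a different change of expression in inguinal white fat (iWAT) than in epididymal white fat (eWAT). For each gene the log2 fold change of KO over WT in eWAT was subtracted from that in iWAT, and this value is called the difference below. All 12 fat libraries of the 18 in the series entered, and the 6 liver libraries did not. The 4 groups were iWAT KO, iWAT WT, eWAT KO and eWAT WT, with 3 libraries in each. KO stands for Bckdha f/f;RIP-Cre and WT for Bckdha f/f, both on C57BL/6 at an age of 12 weeks, so the floxed allele was common to all groups. RIP-Cre usually means Cre recombinase driven by the rat insulin promoter, which acts in pancreatic beta cells and in some neurons, so fat itself is not the usual site of deletion. A group with RIP-Cre alone was not among the samples, and an effect of the driver cannot be told apart from that of the deletion. Whether replicate libraries are separate animals is not stated in the labels, and the p-values cover the spread between these libraries only, which may be technical.

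Bckdha codes for the E1 alpha part of the enzyme complex that commits branched-chain amino acids to breakdown, a process in which fat takes part. Subcutaneous depots such as iWAT and visceral depots such as eWAT differ in resident immune cells, matrix and lipid synthesis. Macrophages take up dying adipocytes and lipid and accumulate in stressed fat, fibroblast-like progenitors lay down its collagen, and sterol-sensing proteins of the endoplasmic reticulum match cholesterol synthesis to need.

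Depth was 16796147 to 28039742 expected counts per fat library, and levels are given as CPM, the count relative to the TMM-scaled library size. Several libraries held transcripts of other tissues. eWAT WT replicate 2 had 44700 CPM of Gpx5, a gene of the epididymal epithelium, and 17.4 CPM of Adipoq, the adipocyte hormone adiponectin, which stood at 1040 to 3890 CPM in the other eWAT libraries. It therefore went against its label as fat. Crisp1, also an epididymal gene, reached 1520 and 1740 CPM in eWAT KO replicates 1 and 3 and 1100 CPM in eWAT WT replicate 2, against at most 2.03 CPM in the other 3 eWAT libraries. iWAT WT replicate 2 held 1.25 CPM of the B cell gene Cd79a, against 147 to 436 CPM in the other iWAT libraries, and 174 CPM of the skeletal muscle gene Acta1. Results that rest on these libraries are given with and without them.

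No gene passed the test of the difference. Of 15455 genes tested, 0 had an adjusted p under 0.05 in edgeR's quasi-likelihood test (0%), and the smallest adjusted p was 0.969. An unadjusted p under 0.05 was found for 739 genes (4.78%), of which 229 (1.48%) had a difference above 0 and 510 (3.3%) below 0. DESeq2 called 31 genes, 6 above 0 and 25 below 0, and limma-voom called 0. Within a depot, edgeR called 0 genes in iWAT and 0 in eWAT (0% each), with 275 (1.78%) and 1784 (11.5%) at an unadjusted p under 0.05. The values below are therefore descriptions, and for each gene of which a difference is given in the following paragraphs, other than Bckdha, edgeR's adjusted p was 0.969. Without eWAT KO replicate 2 edgeR called 3 genes, all below 0, with adjusted p from 0.0315 to 0.0498. They were Ptgs2 (-8.81 ± 0.83 SE), the muscle intermediate filament gene Des (-3.09 ± 0.36) and the prostaglandin transporter gene Slco2a1 (-3.9 ± 0.42); both KO libraries then left in eWAT are those with abundant Crisp1. Without the 3 eWAT libraries of abundant epididymal transcripts edgeR called 1 gene, Arg1, an arginase (-8.65 ± 0.72 SE, adjusted p = 0.0456), with eWAT KO down to 1 library, assumed to vary like the other groups. Des, Slco2a1 and Arg1 were named after their values were seen.

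Bckdha itself did not separate the groups. It lies on chromosome 7 at 25629946 to 25658981 (mm10, as are all coordinates here). Its level was 255, 115 and 158 CPM in iWAT KO, against 117, 228 and 198 CPM in iWAT WT. In eWAT, Bckdha was at 111, 150 and 160 CPM in KO, against 215, 53.8 and 349 CPM in WT. KO and WT overlapped in both depots, and the difference was 0.51 ± 0.79 (SE; edgeR adjusted p = 0.978). It turned to -0.05 with the deposited FPKM values and to -0.13 without eWAT WT replicate 3.

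Genes whose KO libraries lay on opposite sides of WT in the depots were mostly lower in KO in iWAT and higher in KO in eWAT. In 89 genes (0.576% of those tested) every iWAT KO library lay below every iWAT WT library while every eWAT KO library lay above every eWAT WT library. The reverse was found for 12 genes (0.0776%). By size alone, 737 genes (4.77%) were at least 0.5 below 0 in iWAT and 0.5 above 0 in eWAT on the log2 scale, and 269 (1.74%) the reverse. An unadjusted p under 0.05 went with this for 255 (1.65%) and 31 genes (0.201%). In a single depot, KO lay above WT without overlap for 661 genes in iWAT (4.28%) and 1503 in eWAT (9.73%), and below it for 772 (5%) and 927 (6%). Groups that did not overlap in either depot with the same direction numbered 197 (1.27%), 127 of them higher in KO in both depots and 70 lower. Over all genes the log2 fold changes of the 2 depots correlated at 0.15 (Spearman) and 0.19 (Pearson), so they were not opposed in general. With fewer libraries non-overlap is easier to reach, and without the 3 epididymal libraries the opposite counts were 280 and 128.

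**Figure D1:**
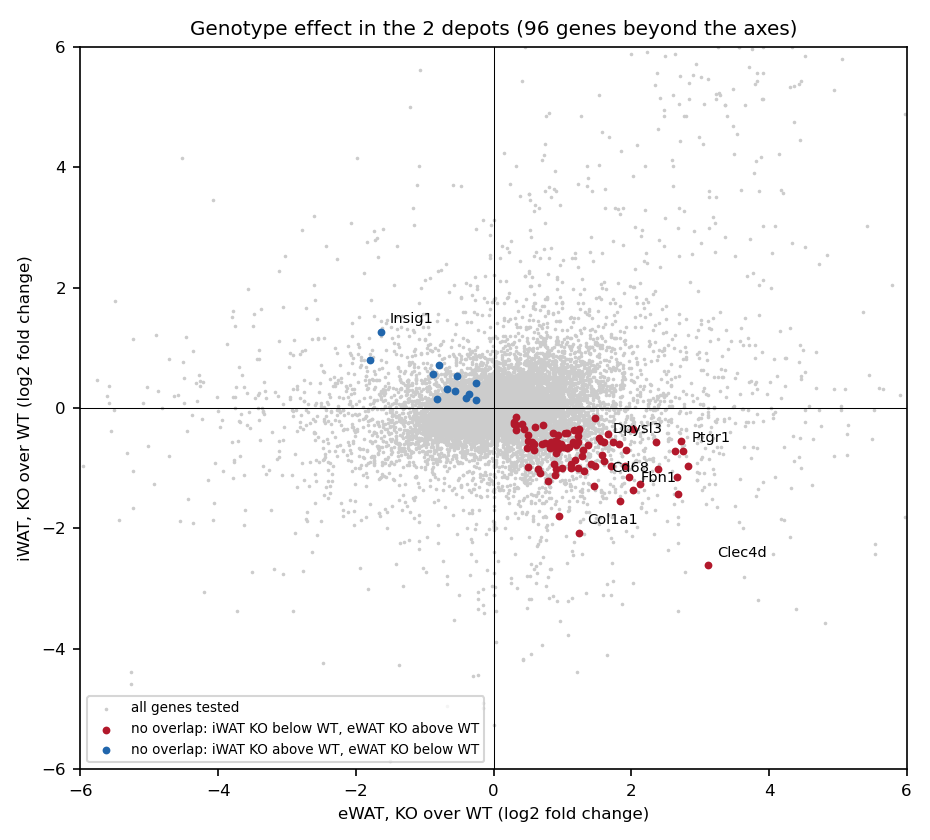
KO over WT in iWAT (vertical, log2 fold change) against KO over WT in eWAT (horizontal, log2 fold change) for each gene tested, with 96 genes beyond the axes. The 89 red genes, lower in KO in iWAT and higher in KO in eWAT with no overlap in either depot, outnumber the 12 blue genes of the reverse pattern.

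Macrophage genes had the largest share of members without overlap in opposite directions among the 40 lists. Of 15 macrophage markers, 12 had a negative fold change in iWAT and a positive one in eWAT (80%, against 21.5% of all genes tested), and none had the reverse. In 7 of the 15 the groups did not overlap in either depot (46.7%, against 0.576%). The median difference of the list was -2.0, made of -0.68 in iWAT and 0.98 in eWAT, against a median of 0.04 over all genes. In this list 0 members passed the adjusted test. An edgeR unadjusted p under 0.05 was found for 10 of the 15, all below 0, against 3.3% of all genes tested. Fewer macrophages and less RNA per macrophage cannot be told apart in bulk tissue.

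Cd68, a lysosomal membrane glycoprotein of macrophages, lies on chromosome 11 at 69664213 to 69666153. It stood at 60.4, 75.8 and 96.4 CPM in iWAT KO, against 120, 149 and 130 CPM in iWAT WT. In eWAT, Cd68 stood at 93.5, 157 and 94.9 CPM in KO, against 52.7, 26.8 and 36.2 CPM in WT. The groups did not overlap in either depot, and the difference was -2.36 ± 0.43 (SE; edgeR unadjusted p = 0.000238). Adgre1, which encodes the F4/80 surface antigen, had 50, 53.4 and 63.7 CPM in iWAT KO, against 75.5, 146 and 113 CPM in iWAT WT. In eWAT, Adgre1 had 61.7, 107 and 78.9 CPM in KO, against 61.3, 17.1 and 27 CPM in WT. The eWAT groups were separated by a narrow margin, between KO replicate 1 and WT replicate 1, and the difference was -2.24 ± 0.62. Csf1r, the receptor for the growth factor macrophages depend on, had 248, 286 and 345 CPM in iWAT KO, against 370, 470 and 453 CPM in iWAT WT. In eWAT, Csf1r had 203, 320 and 251 CPM in KO, against 190, 56.7 and 101 CPM in WT, a difference of -1.71 ± 0.54.

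The other 4 members with no overlap in either depot were the integrin subunit Itgam and the 3 chains of complement C1q, chosen for naming after their values were seen. C1qa, C1qb and C1qc differed by -1.38 ± 0.53, -1.61 ± 0.59 and -1.49 ± 0.55 (SE). Itgam differed by -3.26 ± 1.08, with 1 high library, eWAT KO replicate 2, at 350 CPM against 42.4 and 58.5 CPM in the other eWAT KO libraries. The summed level of the 15 markers was 2180 to 2840 CPM in iWAT KO, against 3650 to 4400 CPM in iWAT WT. In eWAT, the sum was 1870 to 3310 CPM in KO, against 642 to 1770 CPM in WT, with the lowest value in WT replicate 2, the library with little Adipoq. Without that library the opposite pattern was counted in 13 of 15 markers, 7 without overlap, and the median difference was -1.46. Without the 3 epididymal libraries the count was 12 and the median was -1.66. That setting leaves only replicate 2 in eWAT KO, which had the highest sum of the eWAT libraries, 3310 CPM. The sums of eWAT KO replicates 1 and 3 were 1870 and 2030 CPM, against 1770 and 1210 CPM in eWAT WT replicates 1 and 3. Over the alternatives, which include leaving out each library in turn, the median ranged from -2.18 to -1.27. Without replicate 2 of WT in both depots the median was -1.27. Other cell type lists had similar shares of members below 0 in iWAT and above 0 in eWAT: 10 of 13 endothelial markers (76.9%; median difference -0.81), 6 of 8 neutrophil markers (75%; -3.3) and 6 of 8 mast cell markers (75%; -1.08), none of them without overlap in both depots. The endothelial median was -0.1 without replicate 2 of WT in both depots, the neutrophil median was -0.01 without eWAT KO replicate 2, and the mast cell median was 1.51 without the 3 epididymal libraries. Their part in the macrophage values was not tested.

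**Figure D2:**
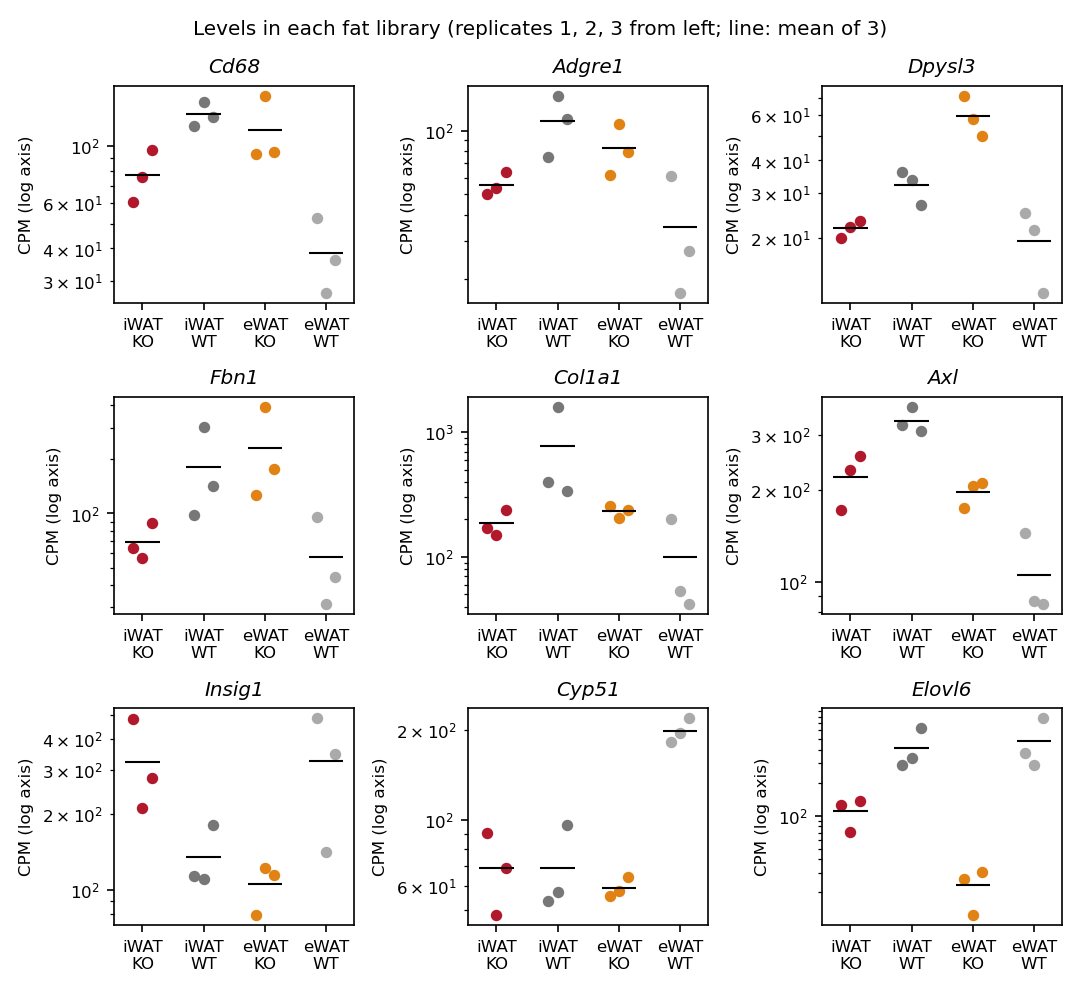
CPM (log axis) of 9 genes in each of the 12 fat libraries, with replicates 1, 2 and 3 from the left and a line at the mean of 3. Cd68, Adgre1, Dpysl3, Fbn1, Col1a1 and Axl are lower in KO in iWAT and higher in KO in eWAT, Insig1 is the reverse, Cyp51 is lower in KO in eWAT, and Elovl6 is lower in KO in both depots.

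The matrix genes followed the same pattern with a wider spread. Of 27 extracellular matrix genes, 24 were below 0 in iWAT and above 0 in eWAT (88.9%, against 21.5% of all genes). The list's median was -0.93 in iWAT and 1.14 in eWAT, a median difference of -1.93, and 0 members passed the adjusted test. An edgeR unadjusted p under 0.05 was found for 17 of the 27, all below 0, against 3.3% of all genes tested. The groups did not overlap in either depot for 3 members (11.1%, against 0.576%), namely Fbn1, Loxl2 and Col1a1.

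Fbn1, the fibrillin of elastic microfibrils, lies on chromosome 2 at 125300594 to 125507993. It had 64.5, 56.7 and 88 CPM in iWAT KO, against 97.6, 302 and 142 CPM in iWAT WT. In eWAT, Fbn1 had 126, 392 and 176 CPM in KO, against 96.2, 31.3 and 44.3 CPM in WT. The difference was -3.39 ± 0.81. Col1a1, a chain of collagen type I, had 170, 150 and 240 CPM in iWAT KO, against 402, 1600 and 338 CPM in iWAT WT. In eWAT, Col1a1 had 258, 205 and 239 CPM in KO, against 202, 53.6 and 41.8 CPM in WT, a difference of -3.31 ± 0.99. The high value of 1600 CPM was in iWAT WT replicate 2, and the eWAT groups were close at their nearest libraries. Loxl2, which cross-links collagen, differed by -2.75 ± 0.74. Thbs2, a matricellular thrombospondin, had 154, 87.9 and 138 CPM in iWAT KO, against 116, 384 and 124 CPM in iWAT WT, so the groups overlapped there. In eWAT, Thbs2 had 127, 162 and 151 CPM in KO, against 31.5, 22.8 and 21 CPM in WT, with no overlap and a difference of -3.27 ± 0.63.

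The summed matrix level was 4890 to 7480 CPM in iWAT KO, against 7510 to 19500 CPM in iWAT WT, where replicate 2 was the highest. In eWAT, that sum was 8330 to 14800 CPM in KO, against 1710 to 8730 CPM in WT, where replicate 2 was the lowest. Without iWAT WT replicate 2 the opposite pattern was found in 18 of 27 members with a median difference of -1.25, and without eWAT WT replicate 2 in 21 with -1.53. Without both libraries it was found in 17, and the median was -1.0.

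**Figure D3:**
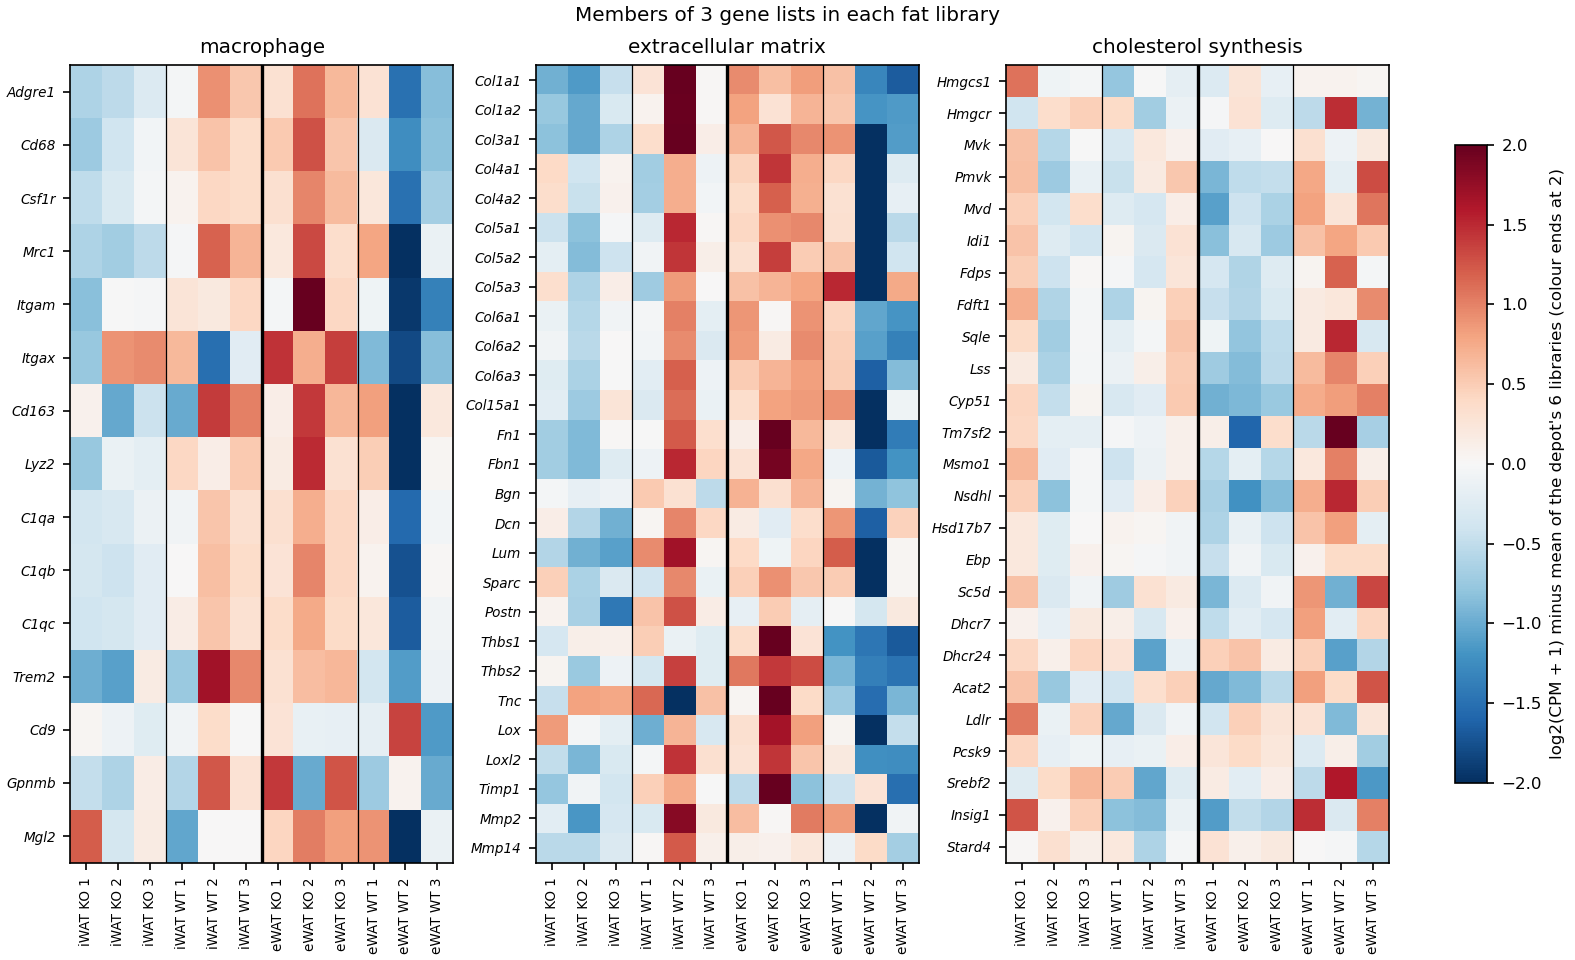
Each cell is log2(CPM + 1) of a list member (row) in a library (column) minus the mean of that depot's 6 libraries, with the colour ending at 2. Macrophage and matrix members are mostly blue in iWAT KO and red in eWAT KO, with deep blue in eWAT WT 2 and deep red matrix values in iWAT WT 2.

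Cholesterol synthesis ran the other way, through lower levels in KO in eWAT. Of 25 genes, 22 had a difference above 0 and 15 were above 0 in iWAT and below 0 in eWAT (60%, against 21.9% of all genes). The list's median was 0.10 in iWAT and -0.94 in eWAT, a median difference of 1.02, and 0 members passed the adjusted test. An edgeR unadjusted p under 0.05 was found for 11 of the 25, all above 0, against 1.48% of all genes tested. Only Insig1 among the 25 had no overlap in either depot (4%, against 0.0776%).

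Insig1 encodes a membrane protein that holds the sterol-regulated SREBP transcription factors in the endoplasmic reticulum, and lies on chromosome 5 at 28071363 to 28078662. It stood at 481, 212 and 280 CPM in iWAT KO, against 113, 110 and 182 CPM in iWAT WT. In eWAT, Insig1 stood at 79.2, 122 and 115 CPM in KO, against 485, 141 and 349 CPM in WT. The difference was 2.89 ± 0.65 (SE; edgeR unadjusted p = 0.00124). Cyp51, the lanosterol demethylase, had 90.6, 48 and 69.3 CPM in iWAT KO, against 53.5, 57.3 and 96.5 CPM in iWAT WT, and the groups overlapped. In eWAT, Cyp51 had 55.5, 58 and 64.3 CPM in KO, against 182, 195 and 220 CPM in WT, and its difference was 1.75 ± 0.39. Mvd, a decarboxylase of the mevalonate pathway, had 26.7, 14.5 and 24.5 CPM in iWAT KO, against 15.8, 14.9 and 20.9 CPM in iWAT WT. In eWAT, Mvd had 7.97, 13.3 and 11.2 CPM in KO, against 32.3, 21.8 and 38.7 CPM in WT, a difference of 1.87 ± 0.44. The sterol dehydrogenase Nsdhl, the isomerase Idi1 and the cyclase Lss differed by 1.72 ± 0.53, 1.27 ± 0.39 and 1.12 ± 0.37, each with no overlap in eWAT only, and were named after their values were seen.

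Summed over the 25 genes the level was 1220 to 2320 CPM in iWAT KO, against 1110 to 1610 CPM in iWAT WT. In eWAT, the summed level was 1140 to 1370 CPM in KO, against 2290 to 2620 CPM in WT, and the groups did not overlap. eWAT WT replicate 2, the library poor in Adipoq, was at 2290 CPM, close to the 2470 and 2620 CPM of the other WT libraries. Without it 13 of 25 members had the opposite pattern and the median difference was 0.94; without the 3 epididymal libraries 12 did, and the median was 0.78.

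The promoters of Insig1, Cyp51, Mvd and Nsdhl are shown because these 4 members had the highest differences of the list. Each runs from 250 bases before to 50 after the RefSeq transcription start on GRCm38.p6, in the direction of the gene, with CCAAT boxes (CCAAT, or ATTGG for the other strand) in capitals. The windows are chr5:28071162-28071461 (+), chr5:4104648-4104947 (-), chr8:122443373-122443672 (-) and chrX:72918271-72918570 (+).
Insig1: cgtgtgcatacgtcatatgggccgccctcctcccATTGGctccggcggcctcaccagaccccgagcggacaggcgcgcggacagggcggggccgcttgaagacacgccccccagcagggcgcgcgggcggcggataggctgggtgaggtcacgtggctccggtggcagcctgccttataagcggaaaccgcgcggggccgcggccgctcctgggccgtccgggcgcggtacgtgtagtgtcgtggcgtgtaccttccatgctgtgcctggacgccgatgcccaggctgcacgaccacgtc
Cyp51: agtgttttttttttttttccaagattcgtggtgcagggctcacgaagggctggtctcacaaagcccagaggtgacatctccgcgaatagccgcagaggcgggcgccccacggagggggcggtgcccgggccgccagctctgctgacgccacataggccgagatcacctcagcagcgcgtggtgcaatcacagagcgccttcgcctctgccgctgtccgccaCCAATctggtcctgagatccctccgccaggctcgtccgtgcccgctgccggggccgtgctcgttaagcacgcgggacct
Mvd: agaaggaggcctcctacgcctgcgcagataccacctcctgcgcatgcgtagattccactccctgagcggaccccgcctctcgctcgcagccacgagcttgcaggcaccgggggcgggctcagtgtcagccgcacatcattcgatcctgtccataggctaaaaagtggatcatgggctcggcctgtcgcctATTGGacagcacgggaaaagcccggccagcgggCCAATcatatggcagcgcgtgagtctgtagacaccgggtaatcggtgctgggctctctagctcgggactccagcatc
Nsdhl: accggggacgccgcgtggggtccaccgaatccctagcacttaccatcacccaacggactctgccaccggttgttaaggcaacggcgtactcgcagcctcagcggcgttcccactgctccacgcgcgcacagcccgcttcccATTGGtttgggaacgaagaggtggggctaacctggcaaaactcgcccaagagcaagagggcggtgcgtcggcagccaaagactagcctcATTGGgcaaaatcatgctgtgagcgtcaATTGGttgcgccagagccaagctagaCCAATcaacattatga
The CCAAT box was in 15 of the 17 cholesterol synthesis promoters in the RefSeq table (88.2%), against 4555 of 11896 promoters of genes tested (38.3%). It was in 6 of 12 macrophage promoters (50.0%) and in 7 of 18 matrix promoters (38.9%). Of the other motifs searched on both strands, a sterol regulatory element (TCACNCCAC) was in 1 of 17 cholesterol synthesis promoters (5.88%), against 1.13% of all. A PU.1 site (GAGGAAGT) was in 1 of 12 macrophage promoters (8.33%), against 3.12% of all. None of the 3 motifs contains another, and the CCAAT box was chosen for display after all 3 had been counted.

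Among the remaining genes of opposite direction, Dpysl3, a cytoskeletal protein known from growing axons, had the smallest p of the difference. It had 20, 22.1 and 23.2 CPM in iWAT KO, against 36.2, 33.5 and 26.9 CPM in iWAT WT. In eWAT, Dpysl3 had 71.3, 57.8 and 50 CPM in KO, against 24.9, 21.4 and 12.2 CPM in WT. The groups did not overlap in either depot, but the margin was narrow in iWAT. The log2 fold change was -0.56 ± 0.26 SE in iWAT (edgeR unadjusted p = 0.0545) and 1.61 ± 0.26 SE in eWAT. The difference was -2.18 ± 0.37 SE (edgeR unadjusted p = 0.00014). Axl, a receptor tyrosine kinase used in the clearance of dying cells, had 172, 232 and 257 CPM in iWAT KO, against 323, 371 and 310 CPM in iWAT WT. In eWAT, Axl had 174, 205 and 210 CPM in KO, against 145, 86.9 and 85 CPM in WT, a difference of -1.49 ± 0.35.

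Lgmn, the lysosomal protease legumain, had 113, 152 and 178 CPM in iWAT KO, against 259, 317 and 265 CPM in iWAT WT. In eWAT, Lgmn had 203, 410 and 210 CPM in KO, against 139, 155 and 83.4 CPM in WT, a difference of -2.05 ± 0.47. Igfbp3, a carrier of insulin-like growth factors, differed by -2.0 ± 0.45, and Il1r1, the signalling receptor for interleukin 1, by -1.33 ± 0.31. Fkbp10, a collagen chaperone, differed by -1.48 ± 0.35 and Frmd4b, a scaffold protein, by -1.49 ± 0.35. Ptgr1, which inactivates prostaglandins and leukotrienes, had 38.6, 9.16 and 31.6 CPM in eWAT KO, against 4.87, 3.82 and 3.08 CPM in eWAT WT, and differed by -3.46 ± 0.69. Its highest values were in eWAT KO replicates 1 and 3, the KO libraries with Crisp1, and the difference was -1.88 without the 3 epididymal libraries. Samd4, an RNA-binding repressor of translation, was likewise highest in those libraries, at 72.6 and 35.5 CPM against 19.3 CPM in eWAT KO replicate 2, and its difference of -2.62 ± 0.62 became -1.53.

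In the reverse direction, higher in KO in iWAT and lower in KO in eWAT, the rule named 3 genes beside Insig1. The zinc finger genes Zfp472 and Zfp51 differed by 1.51 ± 0.60 and 1.44 ± 0.60, and Oxld1, a mitochondrial protein, by 1.07 ± 0.49. All 3 were low, at no more than 12.1 CPM in any fat library. The lowest p values above 0 also included Acsl3, which activates long-chain fatty acids (1.59 ± 0.41), and Kbtbd11, a BTB-kelch protein (1.19 ± 0.33), both separated in eWAT only.

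**Figure D4:**
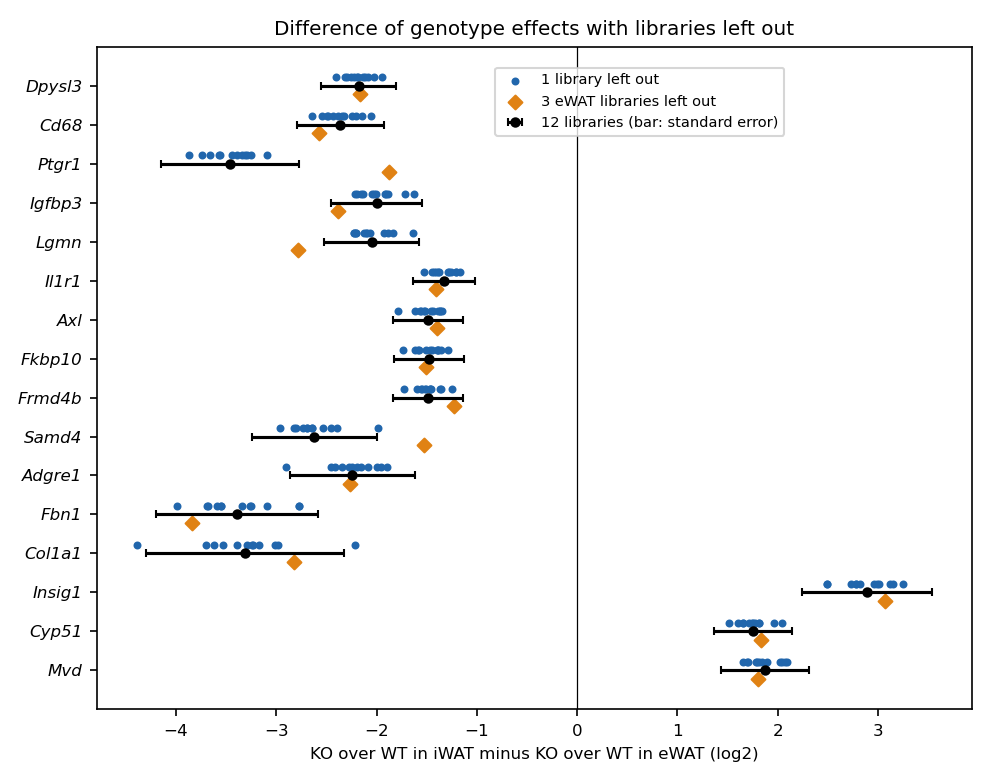
Difference of the genotype effects (log2) for 16 genes, with all 12 libraries (black, bar: SE), with 1 library left out in turn (blue) and without the 3 eWAT libraries of abundant epididymal transcripts (orange). All points keep their side of 0, which the choice of genes from these same libraries favours. Ptgr1 and Samd4 are at -1.88 and -1.53 in orange, against -3.46 and -2.62 with all 12 libraries.

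A separate set of lists had medians below 0 in both depots, and more so in eWAT. Of 22 de novo lipogenesis genes, 21 were below 0 in iWAT and 21 in eWAT, against 7328 and 7377 of the 15455 genes tested. The list's medians were -0.75 and -1.74, with a median difference of 1.2. In edgeR 2 of the 22 had an unadjusted p under 0.05, both above 0, against 1.48% of all genes tested. The list's sums overlapped in both depots, with 23800 to 53100 CPM in iWAT KO against 41300 to 110000 CPM in iWAT WT. In eWAT, the lipogenesis sum was 16100 to 34800 CPM in KO, against 96500, 8290 and 85800 CPM in WT. The lowest was again WT replicate 2, the library poor in Adipoq. Elovl6, which lengthens palmitate, had 126, 70.8 and 137 CPM in iWAT KO, against 287, 336 and 628 CPM in iWAT WT. In eWAT, Elovl6 had 26.5, 12.4 and 30.9 CPM in KO, against 376, 287 and 778 CPM in WT. KO lay below WT without overlap in both depots, by -1.91 ± 0.50 in iWAT and -4.37 ± 0.56 in eWAT, and the difference was 2.46 ± 0.70. Mid1ip1, which activates acetyl-CoA carboxylase, differed by 1.57 ± 0.66, and Acly, which makes cytosolic acetyl-CoA, by 1.54 ± 0.82. Over the alternatives the median difference of the de novo lipogenesis list ranged from 0.28, with the deposited FPKM values, to 1.9, without WT replicate 2 of both depots.

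The mitochondrial lists had the same order. Of 41 nuclear genes of the respiratory chain, 40 had a difference above 0, against 8100 of the 15455 genes tested. The list's median was 0.66 (-0.18 in iWAT and -0.81 in eWAT). All 20 genes of the TCA cycle had a difference above 0 (median 0.45). Both medians rested on eWAT WT replicate 3, without which they were 0.1 and -0.02. All 13 genes of the mitochondrial genome had a difference above 0 with a median of 1.08, which was 0 without eWAT WT replicate 3, where the list summed to 207000 CPM against 30200 to 63800 CPM in the other fat libraries. In branched-chain amino acid catabolism, the pathway of Bckdha, 25 of 27 genes had a difference above 0 and the median was 0.59 (-0.11 in iWAT and -0.67 in eWAT), with 0 members at an unadjusted p under 0.05. Without eWAT WT replicate 3 that median was 0.01, and with the FPKM values it was 0.09. Its leading members were Acad8, an isobutyryl-CoA dehydrogenase (0.67 ± 0.42), and Mccc2, a subunit of a carboxylase in leucine breakdown (0.90 ± 0.71). Echs1, an enoyl-CoA hydratase, followed (0.84 ± 0.71). Each of these differences was below 2 SE. The thermogenic list had a median difference of 0.64 over 16 genes, which turned to between -0.18 and -0.05 with the FPKM values. Ucp1, the uncoupling protein of brown and beige fat, had 45.8, 21.8 and 13.6 CPM in iWAT KO, against 101, 10.3 and 28.8 CPM in iWAT WT. In eWAT, Ucp1 had at most 0.069 CPM in KO, against 0.182 to 2.18 CPM in WT, too low for a fold to be read.

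**Figure D5:**
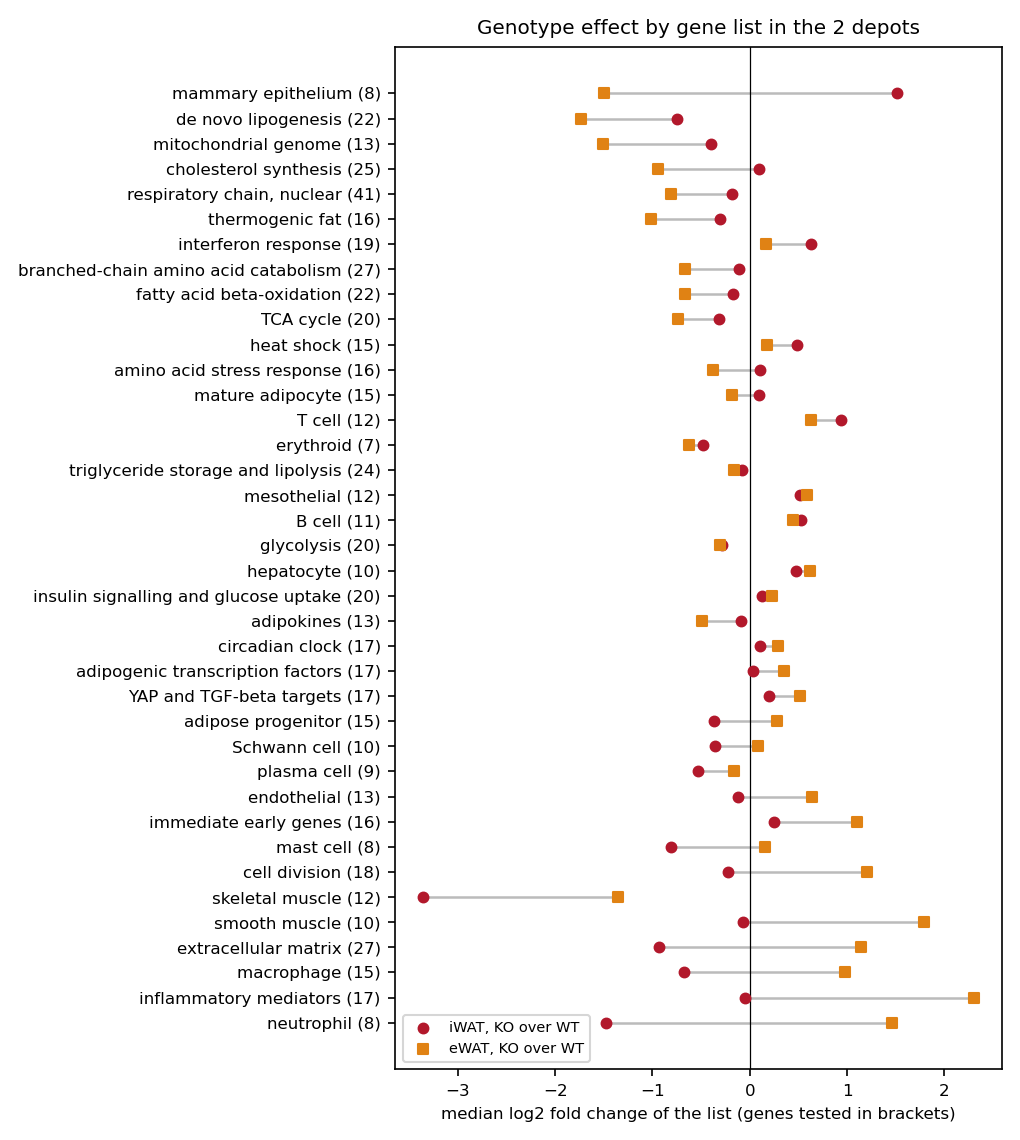
Median log2 fold change of KO over WT in iWAT (red circles) and in eWAT (orange squares) for each gene list, ordered by the difference, with the epididymal and sperm lists left out. Macrophage and matrix lists lie on opposite sides of 0, and lipogenesis and respiratory chain lists lie below 0 in both depots with eWAT further out.

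Inflammatory and smooth muscle lists were led by a few eWAT libraries. The 17 inflammatory mediators had a median difference of -2.82, made of -0.05 in iWAT and 2.31 in eWAT. In edgeR 5 of them had an unadjusted p under 0.05, all below 0, against 3.3% of all genes tested. Without eWAT KO replicate 2 that median was -0.37. Ptgs2, the inducible cyclooxygenase, had 1.54, 2.75 and 1.98 CPM in iWAT KO, against 2.52, 1.21 and 2.88 CPM in iWAT WT. In eWAT, Ptgs2 had 1110, 7.35 and 1420 CPM in KO, against 3.3, 4.55 and 1.03 CPM in WT. The values above 1000 CPM were in the KO libraries with abundant Crisp1, and the difference of -8.23 ± 1.86 was -1.79 without the 3 epididymal libraries. Il1rn, the interleukin 1 receptor antagonist, was instead high in eWAT KO replicate 2 alone, at 35.2 CPM against 3.21 and 3.04 CPM in the other KO libraries. Smooth muscle markers had a median difference of -1.87, which became 0.92 without the 3 epididymal libraries, and Myh11, the smooth muscle myosin, stood at 1370 and 1350 CPM in eWAT KO replicates 1 and 3 against 49.1 CPM in replicate 2. Synpo2, an actin-associated muscle protein, had 258, 179 and 249 CPM in eWAT KO, against 37.9, 19.2 and 22.9 CPM in eWAT WT, and differed by -2.53 ± 0.45.

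Of 18 cell division genes 14 were below 0 in iWAT and above 0 in eWAT (77.8%, against 21.5% of all genes), with a median difference of -1.31, but 0 had an unadjusted p under 0.05. Without iWAT WT replicate 2 the count was 17 and the median -1.82, and without iWAT WT replicate 1 the median was 0.2. The cell division list summed to 185, 444 and 651 CPM in iWAT KO, against 987, 78.3 and 319 CPM in iWAT WT. B cell markers summed to 636, 2010 and 1880 CPM in iWAT KO, against 2170, 32.9 and 955 CPM in iWAT WT, so both sums were highest in WT replicate 1 and lowest in WT replicate 2. The part of lymphoid content in the cell division values was not tested. Gdf15, a stress-induced hormone, stood at 0.659 to 1.36 CPM in iWAT KO, against 1.36 to 1.85 CPM in iWAT WT, and was named after its values were seen. In eWAT, Gdf15 stood at 1.97 to 3.11 CPM in KO, against 0.285 to 0.607 CPM in WT, and the difference was -3.35 ± 0.73. All these levels are low, where counting error adds more. Of the 16 genes of the amino acid stress response list, which includes Gdf15, 10 had a difference above 0, against 8100 of the 15455 genes tested. The median difference of that list was 0.41 and ranged from -0.1 to 0.7 over the alternatives. The mature adipocyte markers had a median difference of 0.40 that ranged from -1.54 to 1.42 over the alternatives, with a summed level of 421 CPM in eWAT WT replicate 2 against 18800 to 73100 CPM in the other eWAT libraries. The part of adipocyte content in the differences above was not tested.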

How the data were processed

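RNA-seq was analysed in 12 fat libraries. Per the submitters' processing notes, reads went through tools that include RSEM, HISAT2, StringTie 1.3.1, Bowtie2 2.2.8 and fastp 0.18.0, on build mm10. The role of each tool is not stated. For each gene the authors deposited an expected count, an estimate that need not be whole (9.19% of fat values lay over 0.01 from a whole number), and an FPKM value, scaled by the authors for gene length and depth. Per the labels' protocols, RNA was enriched with oligo(dT); strand is not mentioned, and reads of overlapping antisense genes cannot be told apart. Of 22298 identifiers 22255 matched a symbol in GENCODE M21, the source of coordinates.

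Expected counts were rounded, filtered with filterByExpr (minimum count 10, minimum total 15), scaled with TMM and fitted with 1 mean per group in edgeR 4.0.16 (R 4.3.3; glmQLFit with robust estimation, glmQLFTest), with Benjamini-Hochberg adjustment over 15455 genes and a threshold of 0.05. The SE is the absolute log2 value divided by the square root of F. The fit was tested on simulated data. Alternatives were other scalings and filters, DESeq2 1.42.0, limma 3.58.1 (voom, and on log2 FPKM with pseudocounts of 1 and 0.1), all 18 libraries, replicate blocks and left-out libraries. No pair of libraries of the same group agreed within sampling noise.

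The comparison, the 40 gene lists and the rules were chosen with earlier results of these data known. Named were Bckdha; up to 10 genes per direction with mean log2 CPM of at least 1, opposite fold changes of at least 0.5 and no overlap of KO and WT in either depot; the 5 lowest p per direction; and up to 3 members of a list by p. Further genes are marked as chosen after their values were seen; lists given by counts alone name no gene. Precision is set by 3 libraries per group, and counting error adds little at this depth except for genes of a few CPM.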

Additional observations from a re-analysis of the deposited data

How the results depend on the processing

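Of the 43 named genes all but Bckdha were chosen by their values in these same data, which favours a direction that holds. The differences of the 43 were recomputed under 27 alternatives (26 for Gdf15). In 42 genes the direction was the same under each; Bckdha turned to -0.05 with log2(FPKM + 1), log2(FPKM + 0.1) and log2(FPKM + 1) at a mean FPKM of at least 1, and ranged from -0.13 (without eWAT WT replicate 3) to 0.97 when 1 library was left out. The cause was not tested. Of 40 list medians 14 kept 1 sign. FPKM moved the median difference of all genes from 0.04 to -0.11, -0.20 and -0.15. DESeq2 called 31 genes for the difference (19 of them opposite in the depots), 20 in iWAT and 307 in eWAT. Without the 3 epididymal libraries 1 gene was called for the difference. Calls in eWAT numbered 2 with limma-voom, 1 without robust estimation, 4 with all 18 libraries, 5, 2 and 9 in the FPKM settings as ordered above, 2 without the 3 epididymal libraries and 4 without WT replicate 2 of both depots. With the replicate number as a block, 1 gene was called in eWAT and 0 for the difference, with 375 at an unadjusted p under 0.05; with genotype and number as the block, 0 and 447. Deviations of log2 CPM from the group mean were compared between the depots within a genotype. They correlated at -0.21 to 0.24 for same-numbered libraries and at -0.24 to 0.24 for differently numbered ones. These values cannot decide whether equal numbers share an animal. Sperm and testis genes summed to 1340 CPM in eWAT KO replicate 1 and 51.9 CPM in iWAT KO replicate 1. In the other iWAT libraries that sum was at most 1.16 CPM. A shared animal was not tested, and the main fit did not take the numbers as pairs.

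Opposite genes of at least 0.5 at an unadjusted p under 0.05 numbered 255 lower in KO in iWAT and 31 the reverse. The reverse count was 62 with no filter, 10 with limma-voom, 47 with all 18 libraries, 3, 10 and 2 with FPKM, 4 with the replicate number block, 91 without the 3 epididymal libraries and 62 without WT replicate 2 of both depots. The first count was 153 and 160 in the FPKM settings with a pseudocount of 1 and 162 with the replicate number block. The counts without overlap, 89 and 12, were 280 and 128 without the 3 epididymal libraries and 179 and 97 without WT replicate 2 of both depots; fewer libraries make non-overlap easier. Leaving out each library in turn gave 0 to 3 calls for the difference, 0 to 1 opposite, 0 in iWAT and 0 to 16 in eWAT, 174 to 377 and 25 to 127 genes at an unadjusted p, and 102 to 196 and 13 to 56 without overlap.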
